A study of Bos taurus with 16 samples.

Results

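Mitochondrial ribosomal proteins are described here through their transcripts in single bovine oocytes and embryos that matured or developed in vivo. Members were chosen by name alone: every locus of the deposited data whose gene name starts with MRPL or MRPS followed by a digit. This gave 77 loci with 74 names among 27393 loci, of which 47 carry MRPL names (46 names) and 30 carry MRPS names (28 names). At least 1 read was present on 73 of them, 34 had reads in every sample, and 4 had none in any.

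Samples were single cells or single embryos at 8 stages with 2 samples per stage, 16 in all: mature oocytes (MII), 2-, 4-, 8- and 16-cell embryos (2C, 4C, 8C, 16C), early morulae (EM, called 32-cell embryos in the paper), compact morulae (CM) and blastocysts (BL). No treatment was applied, and the labels give neither the breed nor the donors. The RNA of each sample was amplified in 2 rounds before sequencing. Because each stage is represented by 2 oocytes or embryos, p-values measure the spread between these samples only. In the test of samples before against after genome activation, the stages within a period count as replicates. Its p-values thus also hold the spread between stages.

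Mitochondria translate the few proteins encoded in their own DNA, all of them parts of the respiratory chain and the ATP synthase, on ribosomes of their own. The ribosomal RNAs come from mitochondrial DNA, whereas every protein of these ribosomes is encoded in the nucleus, made in the cytosol and imported. MRPL names belong to the large subunit, which joins amino acids and releases the nascent chain into the inner membrane, and MRPS names to the small subunit, which binds and decodes the mRNA. Many members descend from bacterial ribosomal proteins, and others occur only in mitochondria. A few names mislead: the products of MRPS30 and MRPS18A sit in the large subunit, and that of MRPS36 is known as a subunit of the 2-oxoglutarate dehydrogenase complex. Oocytes are rich in mitochondria and pass them to the embryo, and embryonic genome activation (EGA) lies between the 4-cell and 8-cell stages in these embryos.

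Between 607672 and 3379426 reads per sample were recovered from the deposited values, and levels below are CPM (reads per 1e6 reads of the sample, not divided by gene length). A level of 3 reads, taken as the detection floor, equals 0.888 to 4.94 CPM depending on the sample, and covers counting error only. Libraries before EGA held 1440058 to 3379426 reads and those after it 607672 to 1805933. Summed oocyte markers lay between 7378 and 10060 CPM in MII, of which H1FOO alone held 7085 and 9715 CPM, and between 5.89 and 8.81 CPM in BL, and blastocyst markers between 19.9 and 21.9 CPM in MII and between 1218 and 1271 CPM in BL. BMP15 of the first list was at 0 in every sample and CDX2 of the second at 0 in both BL samples. For 6 of the 16 samples the most similar sample was not the replicate. 2C replicate 1 was closer to MII replicate 2 (r = 0.892) than to 2C replicate 2 (r = 0.889), and 2C replicate 2 was closer to 4C replicate 1 (r = 0.935). 8C replicate 1 was closer to 16C replicate 1 (r = 0.886), and 8C replicate 2 to CM replicate 2 (r = 0.846), than they were to each other (r = 0.815, the lowest of any pair of replicates). 16C replicate 1 was closer to CM replicate 2 (r = 0.901 against 0.899), and CM replicate 2 to EM replicate 1 (r = 0.924 against 0.910). Oocyte markers summed to 1463 CPM in 8C replicate 2, of which H1FOO held 1347, and blastocyst markers to 380 CPM in 16C replicate 2 against 68.0 CPM in 16C replicate 1. Counts are also given without 2C replicate 1 and 8C replicate 2. With any 1 of these 7 libraries left out, 40 to 44 members rose and 2 fell after EGA. The list of 10 cumulus cell markers summed to 564 to 1995 CPM before EGA and 384 to 878 CPM after it. STAR held most of these reads. HAS2, a cumulus matrix gene, had 68.7 to 298 CPM in the 6 samples before EGA and 0 to 18.3 CPM after it. FSHR had 1.48 to 9.20 CPM in all 6 and was at 0 in all 10 after EGA, and CYP19A1 had 3.55 to 24.3 and 0 to 13.5 CPM. In the other direction, LHCGR had 0 to 6.15 CPM before and 1.24 to 52.8 CPM after EGA, and HSD3B1 reached 34.4 and 54.3 CPM in BL. AMH was at 0 throughout, and PTX3, VCAN and TNFAIP6 did not exceed 2.94 CPM. Markers on this list thus moved both ways at EGA; the part of other cells in the results was not tested.

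Together the members held 439 and 544 CPM in the MII samples, 1118 and 1646 in 2C, 1169 and 1229 in 4C, 1543 and 2235 in 8C, 1497 and 1860 in 16C, 2908 and 3735 in EM, 2711 and 2228 in CM, and 2596 and 1962 in BL. The 2 oocytes held least, and the 2 early morulae most, on this scale. This was 0.0439% to 0.373% of all reads. The log2 ratio of the mean sums was 1.18 from before to after EGA and 0.66 from 4C to 8C, with no test. The second was 0.36 without 8C replicate 2. MRPS18C alone took 34.7% and 35.7% of the members' reads in the 4C samples, against 0.861% to 9.29% in the samples after EGA. Without it, the ratio was 1.60 from before to after EGA and 1.23 from 4C to 8C. On the authors' scale, which divides by a size factor in place of the total, the ratio from before to after EGA was 0.77.

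**Figure D1:**
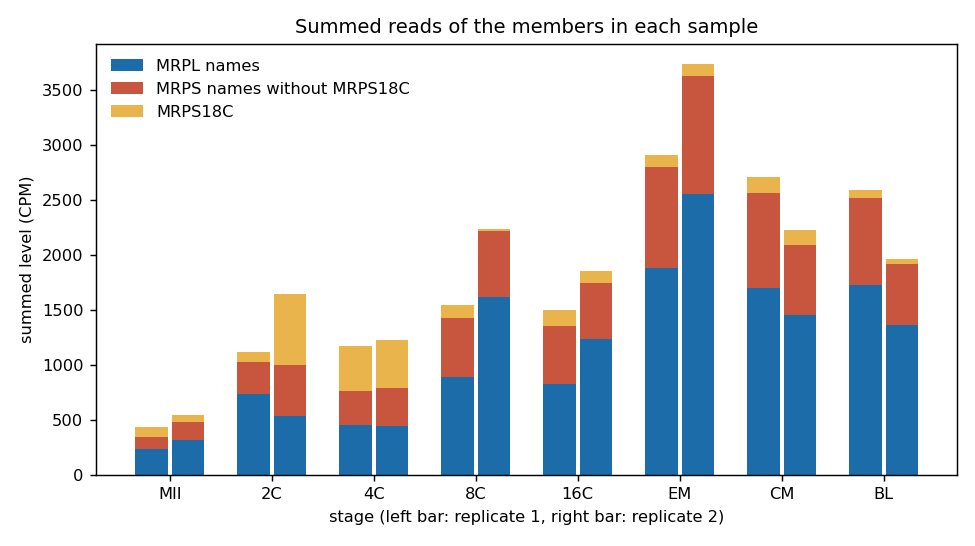
Summed CPM (y axis, from 0) of loci with MRPL names (blue), MRPS names without MRPS18C (red) and MRPS18C (yellow), 1 bar for each of the 16 samples by stage (x axis). The sums run from 439 CPM in an MII oocyte to 3735 CPM in an early morula, and MRPS18C takes its largest share, 39.4%, in 2C replicate 2.

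The number of members with a read was 43 and 47 in the MII samples, 56 to 65 in 2C and 4C, and 65 to 72 from 8C on. The fewest members with reads were thus found in the oocytes, whose libraries of 2256671 and 2281896 reads were larger than any after EGA. In the 8-stage model a stage effect was found for 51 of 69 members tested (limma, Benjamini-Hochberg adjusted p under 0.05), where 66.7% of all loci tested passed. Without 2C replicate 1 and 8C replicate 2 it was found for 53 of 71. Large subunit names passed in 34 of 44 cases and small subunit names in 17 of 25.

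After EGA (8C to BL, 10 samples), the transcripts of most members stood higher than before it (MII to 4C, 6 samples). Of 60 members tested by limma on log2(deposited value + 1), 42 rose and 2 fell, and 16 did not pass the test. Among all loci tested, 36.9% rose and 29.9% fell. The median log2 change was 2.05 over the members, or 1.33 with a pseudocount of 5, and 0.23 over all loci. Scaling to total reads instead moved these medians to 2.45 and 0.68, and the change of a single member has to be weighed against this shift of the whole. A member low in all samples before EGA passes the filter on low values through the later samples only and had to differ. Of the 42 that rose, 29 had a mean under 5 CPM before EGA, and 0 of the other tested members did. A further 13 members with reads were not tested for lack of reads. Without that filter 48 rose and 2 fell of 73, against 18.4% and 20.2% of all loci. Without 2C replicate 1 and 8C replicate 2 the counts were 42 and 2 of 62. At an unadjusted p under 0.05 they were 42 and 2 of 60, against 38.1% and 31.3% of all loci.

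In CPM, the lowest sample after EGA exceeded the highest one before it for 21 of 73 members, against 7.59% of the 18318 loci with at least 1 read. The opposite order was found for 0 members, against 5.07% of these loci. Only 6910 loci passed the filter for the EGA test, so these shares include loci with few reads. In the heat map of all members by sample, members with few reads before EGA are rows that are dark to the left of the white line.

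**Figure D2:**
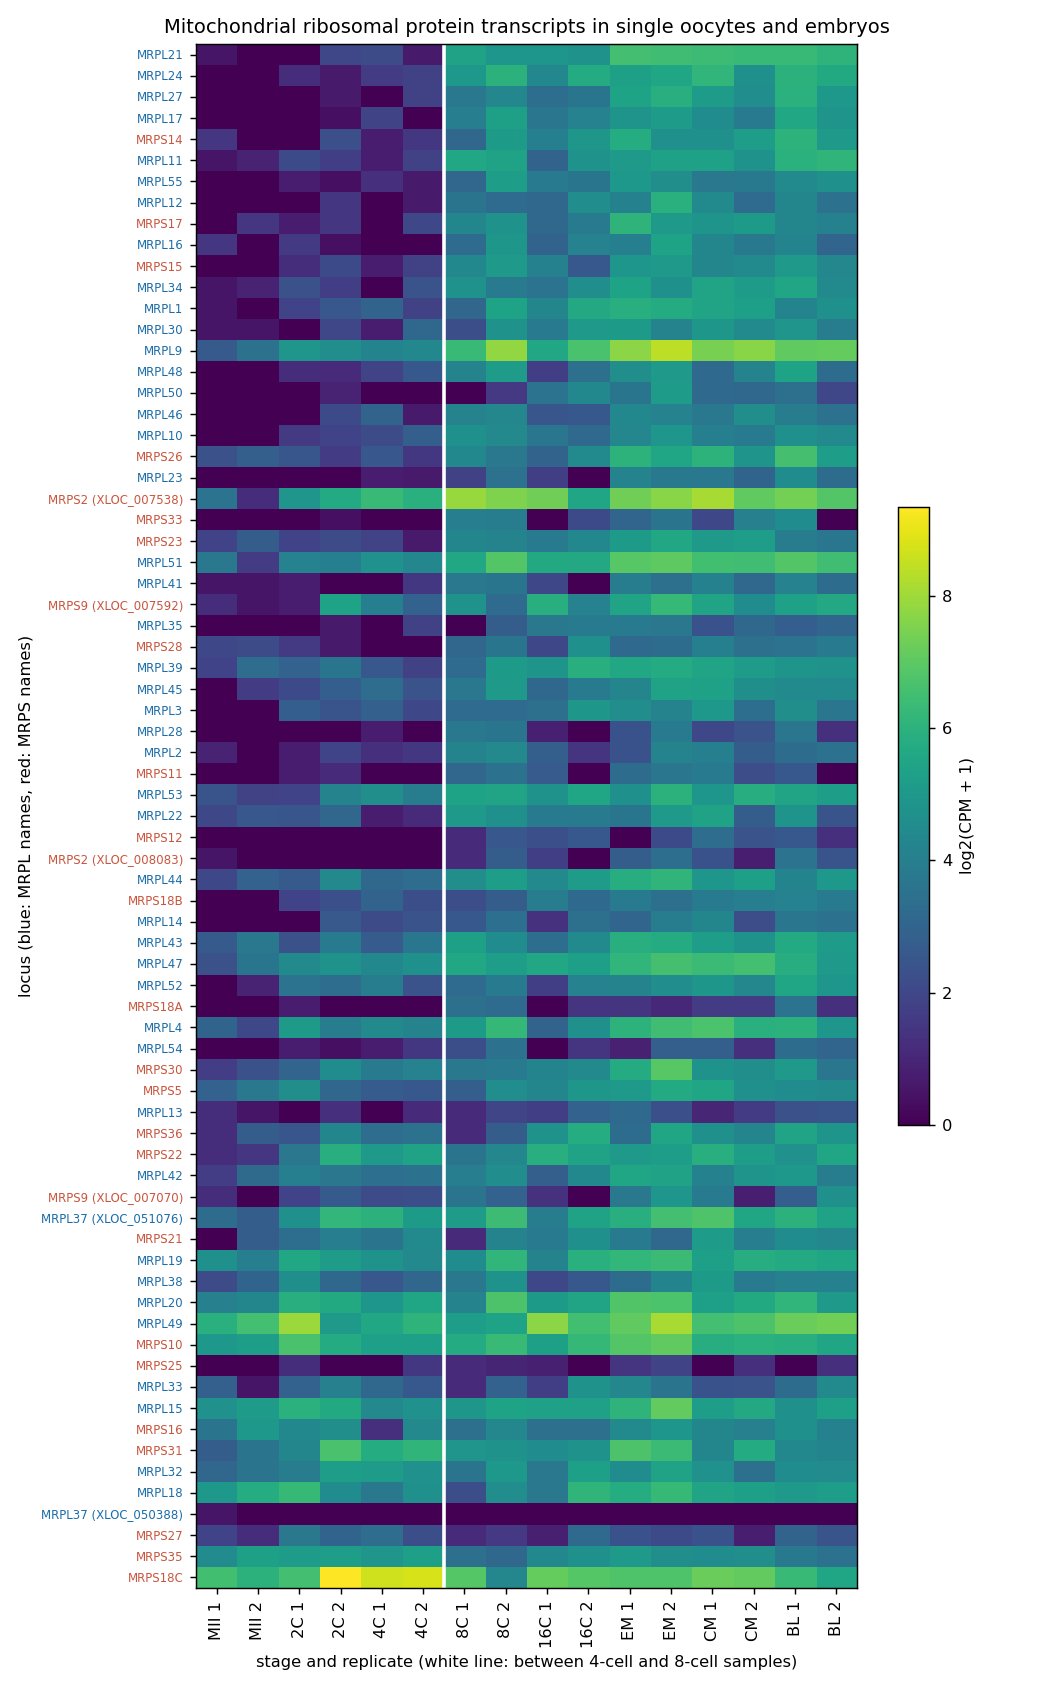
Levels as log2(CPM + 1) (colour) of the 73 loci with at least 1 read (rows; blue MRPL, red MRPS) in the 16 samples (columns, by stage), ordered from the largest difference after minus before EGA at the top to the lowest at the bottom. MRPL21, with 0 to 3.47 CPM before and 26.3 to 94.0 CPM after EGA, is at the top, and MRPS18C, with 64.0 to 649 and 19.2 to 147 CPM, is at the bottom.

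The 4 largest rises were those of large subunit members. MRPL21 (XLOC_049001), a counterpart of bacterial L21, had 0 CPM at the lowest, 0.529 at the median and 3.47 at the highest before EGA, and 26.3, 71.8 and 94.0 CPM after it. Its groups did not overlap, and the log2 change was 4.86 (standard error 0.46). MRPL24 (XLOC_049976), a protein by the exit tunnel of the large subunit, had 0, 0.962 and 2.46 CPM before and 19.3, 47.1 and 70.7 CPM after. It was at 0 in both oocytes and changed by 4.55 on the log2 scale (standard error 0.42). MRPL27 (XLOC_027263), which lies near the peptidyl transferase centre, had no more than 2.46 CPM before and at least 9.27 CPM after EGA, with medians of 0 and 26.8 CPM. Its log2 change was 4.35 (standard error 0.46). MRPL17 (XLOC_017028), also by the exit tunnel, had no more than 2.78 CPM before and at least 11.6 CPM after, and changed by 4.27 (standard error 0.43). The largest rise of a small subunit member was that of MRPS14 (XLOC_019892), with 0, 1.23 and 3.85 CPM before and 7.42, 31.0 and 64.8 CPM after. These groups did not overlap either, and the log2 change was 3.74 (standard error 0.49). At 3 reads the floor before EGA is 0.888 to 2.08 CPM, so most of these earlier values rest on a few reads, and the sizes on this scale are understated by the pseudocount of 1. None of these members exceeded 3.85 CPM before EGA. They passed the filter on low values through the later samples only, so no p is given as support, and the lack of overlap is none either.

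By name, 31 of 41 tested MRPL names rose after EGA and 0 fell, with a median log2 change of 2.14. Of 19 tested MRPS names, 11 rose and 2 fell, with a median of 1.03. This median is the value of MRPS30, whose product sits in the large subunit, and MRPS36 is also among the 19. The names are thus not an exact split by subunit, and the difference between them was not tested. Of the members with a bacterial counterpart, 27 rose and 1 fell of 37 (median 2.28), and of the mitochondria-specific ones 14 rose and 1 fell of 21 (median 1.59). In CPM, the summed MRPL names exceeded the summed MRPS names in 13 of 16 samples, and the ratio ranged from 0.483 in 2C replicate 2 to 2.64 in 8C replicate 2. Leaving out MRPS18C, it was between 1.16 and 2.72 and above 1 in 16 of 16. CPM is not divided by length, so this ratio compares reads and not molecules.

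Of the 2 members that fell, MRPS18C (XLOC_060342) had the most reads of any member, 5116 of 39845. It encodes the mitochondrial counterpart of bacterial S18. MII held 91.3 and 64.0 CPM, 2C 93.2 and 649, and 4C 406 and 438. From 8C on the values were 116 and 19.2 in 8C, 139 and 117 in 16C, 107 and 107 in EM, 147 and 138 in CM, and 77.6 and 45.5 in BL. The 4C samples and 2C replicate 2 were high, whereas both oocytes and 2C replicate 1 lay within the range found after EGA. The log2 change was -1.64 (standard error 0.50, limma adjusted p = 0.0062), and scaled to total reads it did not pass (adjusted p = 0.058). From 4C to 8C the log2 change was -3.13 (standard error 0.87, limma adjusted p = 0.011), and this call was lost without either 4C sample or without 8C replicate 2. MRPS18C overlaps FAM175A in the reference annotation, and whether counting used the strand is not given in the sources used here. FAM175A had 143 ± 87.2 CPM (SD, n = 6) before and 272 ± 109 CPM (SD, n = 10) after EGA.

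MRPS35 (XLOC_057589), a small subunit protein found in mitochondria only, was the other. It had 21.7 and 39.0 CPM in MII, 35.3 and 37.0 in 2C, 28.5 and 37.5 in 4C, 9.90 and 7.70 in 8C, 19.3 and 24.7 in 16C, 31.9 and 23.3 in EM, 22.6 and 23.6 in CM, and 12.8 and 10.3 in BL. The lowest values were those of 8C and BL, and the groups before and after EGA overlapped. Its log2 change was -1.38 (standard error 0.36, limma adjusted p = 0.0022) from before to after EGA and -1.82 (standard error 0.58, limma adjusted p = 0.024) from 4C to 8C. The second call was lost by edgeR, without either 4C sample, without 8C replicate 2, and without 2C replicate 1 and 8C replicate 2 together. REP15, which overlaps it in the reference annotation, had reads in 4C replicate 2 only (6.76 CPM).

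The names MRPS18A, MRPS18B and MRPS18C belong to related genes whose products occupy different places in the mitochondrial ribosome, and their transcripts followed different courses. MRPS18A (XLOC_039690) had 40 reads in all. It was at 0 in 5 of the 6 samples before EGA and held 9.90 and 8.66 CPM in 8C, no more than 2.14 CPM from 16C to CM, and 10.8 and 1.47 CPM in BL. From 4C, where both samples were at 0, to 8C it was at least 4.73-fold higher against the floor. It passed the filter on low values through the few samples where it was high, so no p is given as support. MRPS18B (XLOC_039772) was at 0 in both oocytes, held 6.94 and 3.69 CPM in 4C, 3.71 and 5.77 in 8C and 16.7 and 13.2 in BL. It rose by 1.90 on the log2 scale after EGA (standard error 0.52). With at most 6.94 CPM before EGA, it passed the filter for that test through the later samples only, so no p is given as support here either.

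The time course was divided into 3 spans in the 8-stage model. MII to 4C and 4C to 8C share the 4C samples, and 4C to 8C and 8C to BL share the 8C samples, so the values below are given side by side. As for EGA, a member that passed the filter on low values only through the samples where it was high had to differ.

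**Figure D3:**
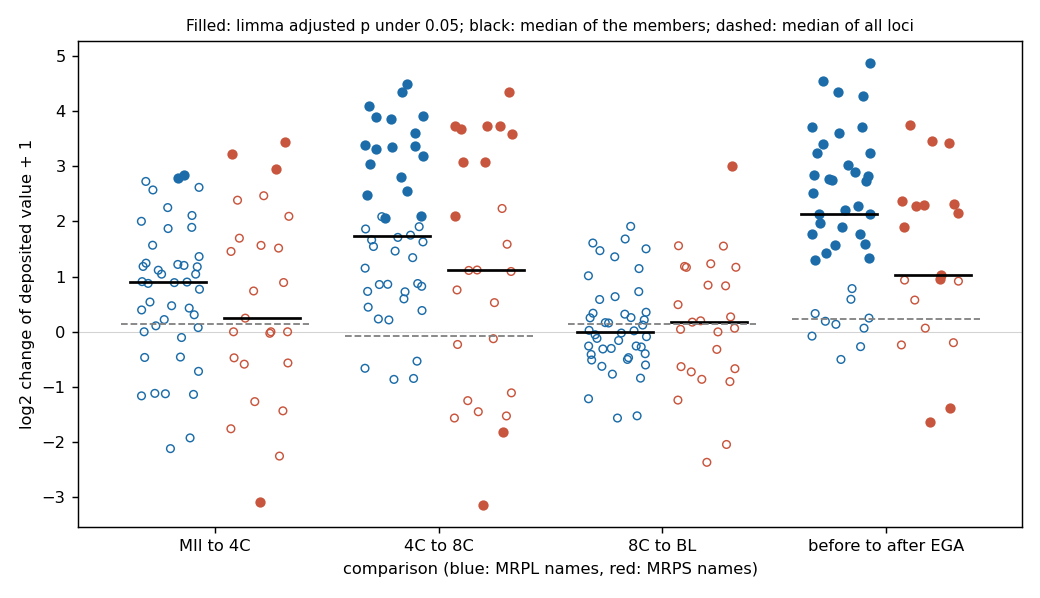
Log2 change of the deposited value + 1 (y axis) of each member tested, for the spans MII to 4C, 4C to 8C and 8C to BL and for before against after EGA (x axis), with MRPL names in blue and MRPS names in red. Filled points have a limma adjusted p under 0.05, black lines are the members' medians by subunit name, and dashed lines the medians of all loci; over all members the medians are 0.88, 1.63, 0.04 and 2.05.

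From MII to 4C, 5 of 69 members rose and 1 fell, against 6.48% and 2.19% of all loci, shares near the background. The median log2 change was 0.88 over the members and 0.15 over all loci, and over the members it was 0.46 without 4C replicate 2, 0.52 without MII replicate 1 and 0.34 with a pseudocount of 5. Scaled to total reads, 8 rose and 0 fell, and all loci split into 1057 higher and 55 lower in place of 627 and 212. Without 2C replicate 1 and 8C replicate 2, 10 rose and 1 fell of 71, against 9.41% and 4.02% of all loci. Leaving out a 4C sample or MII replicate 2 left 0 of 71 higher and 0 lower, in fits where 0.266% to 0.591% of all loci rose, and leaving out MII replicate 1 left 2 higher, where 4.54% of all loci rose, and 0 lower.

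MRPS22 (XLOC_000876), a small subunit protein specific to mitochondria, had 1.33 and 1.75 CPM in MII and 31.2 and 40.6 CPM in 4C. Both embryos lay above both oocytes, with a log2 change of 3.44 (standard error 0.71, limma adjusted p = 0.012). MRPS2 (XLOC_007538), the counterpart of bacterial S2, had 10.6 and 1.31 CPM in MII and 78.5 and 60.2 in 4C (log2 change 3.22, standard error 0.80, limma adjusted p = 0.025). MRPS18B, MRPL10 and MRPL3 were at 0 in both oocytes. Against the floor, they rose at least 4.02-, 3.64- and 3.53-fold by 4C (limma adjusted p = 0.024, 0.021 and 0.035). MRPS28 (XLOC_015220), with 3.10 and 3.51 CPM in MII and 0 in both 4C samples, fell at least 1.68-fold against the floor (limma adjusted p = 0.030). By edgeR the changes of MRPS2, MRPL3 and MRPS28 did not pass. With 10 members at such bounds and 13 left out because both stages were at or under the floor, the members' median was 0.78.

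From 4C to 8C, 27 of 69 members rose and 2 fell, where 17.7% of all loci rose and 19.1% fell. The median log2 change was 1.63 over the members and -0.08 over all loci, and 1.61 with 6 members at their bounds and 1 left out. Without 4C replicate 1 the count that rose was 14 of 71, and without 4C replicate 2 it was 17 of 71, where the share of all loci that rose was also lower, 9.40% and 9.42%. Without 2C replicate 1 and 8C replicate 2 it was 23 of 71, where 17.3% of all loci rose.

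MRPL16 (XLOC_017905), a protein near the peptidyl transferase centre, was at 0 in both 4C samples and had 8.66 and 29.8 CPM in 8C. It rose at least 9.80-fold against the floor (limma adjusted p = 0.0016). MRPS33 (XLOC_054264), specific to mitochondria, was also at 0 in 4C and had 14.8 and 14.4 CPM in 8C, at least 7.46-fold more (limma adjusted p = 0.011). This call was lost without either 4C sample or without 8C replicate 1. In later stages it ranged from 0 to 22.6 CPM, with 0 in 16C replicate 1 and BL replicate 2. MRPL11 (XLOC_048973) went from 0.694 and 2.46 CPM to 45.8 and 40.4 CPM. Both 8C samples stood above both 4C samples, with a log2 change of 4.33 (standard error 0.68, limma adjusted p = 0.00034). MRPL22 (XLOC_063416) went from 0.694 and 1.23 CPM to 32.2 and 25.0 CPM (log2 change 4.10, standard error 0.91, limma adjusted p = 0.0032). It had 3.10 and 4.82 CPM in MII, and in the later stages it spread widely, with 41.0 and 5.71 CPM in CM and 27.5 and 4.40 in BL. MRPL17 went from 2.78 and 0 CPM to 14.8 and 38.5 CPM (log2 change 3.91, standard error 0.79, limma adjusted p = 0.0018).

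From 8C to BL, 1 of 69 members rose and 0 fell by limma, against 6.44% and 3.63% of all loci. At an unadjusted p under 0.05 these counts were 3 and 1, against 15.1% and 9.60% of all loci, and edgeR and DESeq2 on the recovered reads called 0 members in either direction. Without 2C replicate 1 and 8C replicate 2 limma called 1 higher and 0 lower of 71, against 4.19% and 2.01% of all loci. The members' median log2 change was 0.04, from -0.27 without 8C replicate 1 to 0.34 scaled to total reads over the alternatives, and that of all loci 0.13. Single changes ranged from -2.36 to 3.0 with a median standard error of 0.79, with 2 samples per stage. MRPS36 (XLOC_033616) was the member called. It had 1.24 and 5.77 CPM in 8C, 26.3 and 54.3 in 16C, 8.99 and 45.4 in EM, 24.6 and 17.8 in CM, and 43.2 and 27.9 in BL. Both 8C samples were below all later ones, and before EGA the values were 1.33 to 18.6 CPM. Its log2 change was 3.0 (standard error 0.87, limma adjusted p = 0.040), and the call was lost in 13 of 25 alternatives, with adjusted p values from 0.026 to 0.18.

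The stage with the highest mean depended on the scale. Among 69 members with at least 50 reads it was EM for 37 in CPM, or 53.6%, where 22.3% of all such loci peaked in EM. On the authors' scale EM was highest for 12 (17.4%, against 8.46% of all such loci), CM for 18 (26.1% against 7.71%), 8C for 16 (23.2% against 10.8%) and BL for 10 (14.5% against 19.3%), and with TMM factors EM was highest for 20.

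**Figure D4:**
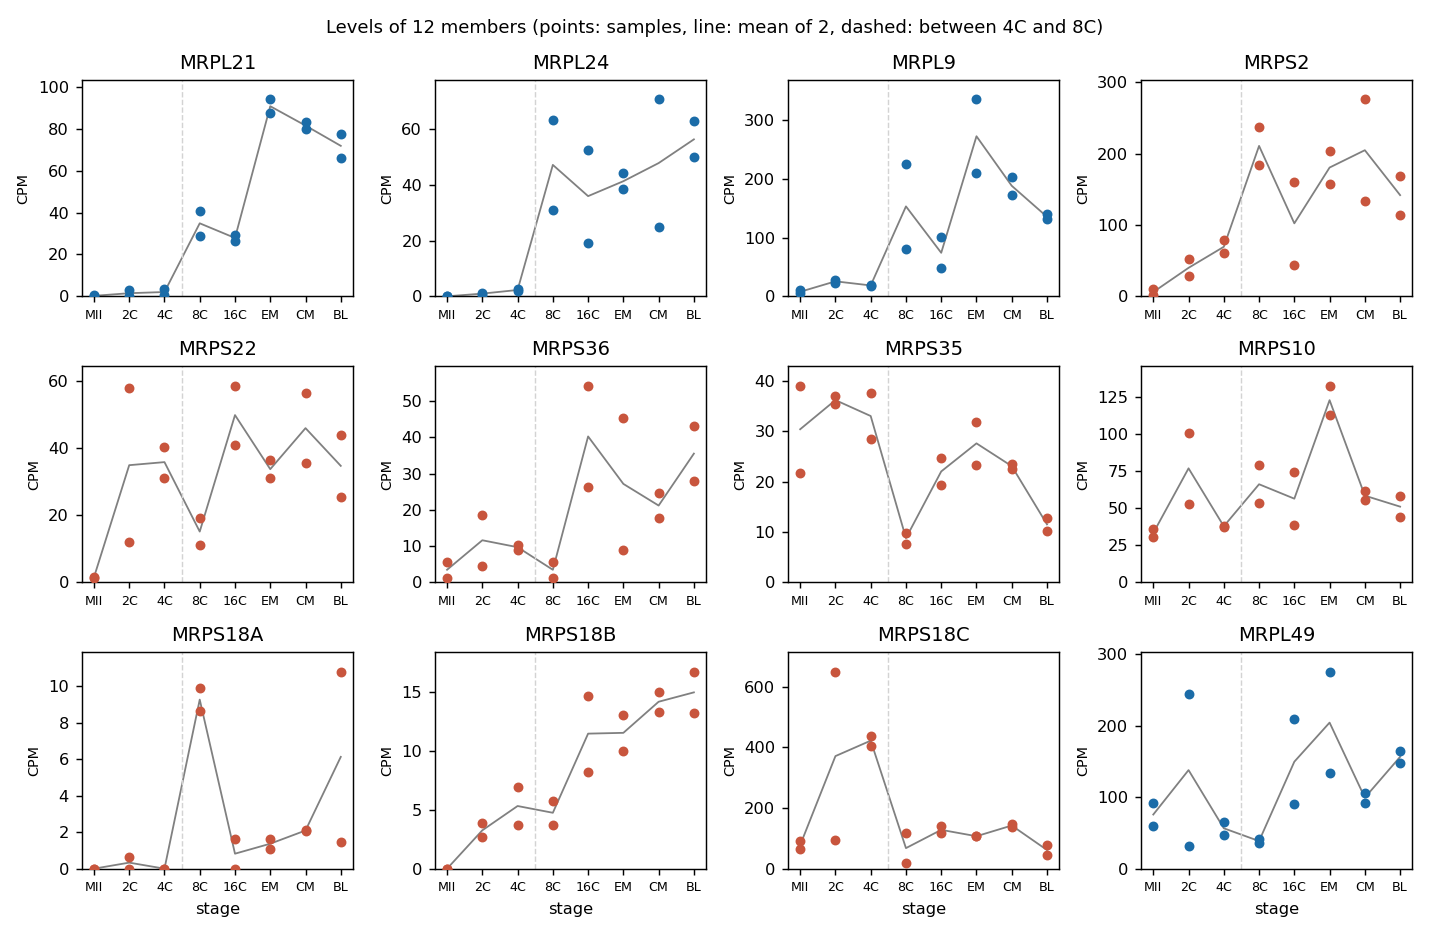
CPM (y axis, from 0, scaled to each panel) by stage (x axis) for 12 members: points are the 2 samples per stage, the grey line their mean, and the dashed line marks the step from 4C to 8C. MRPL21, MRPL24 and MRPL9 lie near the axis up to 4C and above it from 8C on, MRPS18C is highest in 2C replicate 2 at 649 CPM and in 4C, and MRPS10 ranges from 30.6 to 132 CPM.

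The members with the highest mean level by reads, after MRPS18C (172 CPM over 16 samples), were MRPS2 (119 CPM), MRPL49 (115 CPM), MRPL9 (109 CPM) and MRPS10 (62.8 CPM). These means are not divided by length. MRPL9 (XLOC_050078), the counterpart of bacterial L9, had 5.32, 18.5 and 28.0 CPM as lowest, median and highest before EGA and 47.9, 156 and 336 CPM after it. Its groups did not overlap, with a log2 change of 2.72 (standard error 0.35, limma adjusted p = 9.3e-07). MRPS2 had 1.31, 39.9 and 78.5 CPM before and 44.4, 164 and 276 CPM after, with overlap in 16C replicate 2. Its log2 change was 2.28 (standard error 0.56, limma adjusted p = 0.0012). MRPL49 (XLOC_048610) had 31.4, 62.6 and 244 CPM before and 35.9, 120 and 275 CPM after, and its log2 change of 0.14 (standard error 0.45, limma adjusted p = 0.80) did not pass. It overlaps SYVN1 in the reference annotation, and SYVN1 had 61.2 ± 35.7 CPM (SD, n = 6) before and 318 ± 174 CPM (SD, n = 10) after EGA.

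The smallest ranges of log2 level among the 9 members with at least 10 reads in every sample were those of MRPS10, MRPL19 and MRPL15, 2.08, 2.37 and 2.70. MRPS10 (XLOC_039671), the counterpart of bacterial S10, had 30.6, 37.8 and 101 CPM before and 38.6, 59.7 and 132 CPM after EGA (log2 change 0.07, standard error 0.30, limma adjusted p = 0.86). MRPL19 (XLOC_007734) had a median of 25.9 CPM before and 53.9 CPM after, with a log2 change of 0.33 (standard error 0.33, limma adjusted p = 0.38). MRPL15 (XLOC_014909) had medians of 30.4 and 39.8 CPM and a log2 change of -0.08 (standard error 0.35, limma adjusted p = 0.85). With standard errors of 0.30 to 0.35, small changes were not detectable. Over the 16 members that did not pass, log2 changes ranged from -0.50 to 0.94.

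MRPS30 (XLOC_033672) had 2.22, 10.6 and 22.5 CPM before and 11.7, 22.5 and 119 CPM after EGA. The groups overlapped, and the rise of 1.03 on the log2 scale (standard error 0.45, limma adjusted p = 0.047) was lost in 14 of 26 alternatives. The highest value was that of EM replicate 2.

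Several loci share 1 name in 3 cases, and their reads could not be assigned to 1 gene with certainty. MRPL37 lies almost wholly on XLOC_051076 (1114 reads, with 1 read on the other). It did not pass after EGA (log2 change 0.59, standard error 0.44, limma adjusted p = 0.24). MRPS2 had 2338 reads on XLOC_007538 and 54 on XLOC_008083. MRPS9 had 628 reads on XLOC_007592 and 159 on XLOC_007070. The first of these MRPS9 loci rose after EGA, by 2.32 on the log2 scale (standard error 0.63, limma adjusted p = 0.0028), from 0.438, 4.04 and 42.0 CPM to 8.66, 40.9 and 75.9 CPM. By edgeR this rise did not pass (adjusted p = 0.10), nor did the locus pass the test for a stage effect (limma adjusted p = 0.060).

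MRPL36, MRPS24, MRPS6 and MRPS7 are listed at 0 in all samples, and all 4 belong to an unbroken stretch of 2578 loci without any read. An absence of these transcripts cannot be read from this. By name, 21 of 74 members overlap an annotated gene in the reference (assembly ARS-UCD2.0), 11 of them one that is named in the deposited data, and their reads are uncertain to that extent.

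Other genes of the same machinery were taken from lists of names, to be read against the 36.9% of all loci that rose and the 29.9% that fell after EGA, and against the median log2 change of 0.23. Of 7 mitochondrial ribosome proteins with other names, 5 were tested for EGA and all 5 rose. CHCHD1 (means of 6.25 CPM before and 7.75 CPM after EGA) and GADD45GIP1 (0.308 and 5.80 CPM) were not tested for lack of reads. A listed gene low in all samples before EGA, such as AURKAIP1 with at most 0.888 CPM, passed the filter on low values through the later samples only and had to differ. AURKAIP1 rose by 3.54 and DAP3, a small subunit protein that binds GTP, by 2.83 on the log2 scale. Of 11 tested translation factors 5 rose (45.5%) and 0 fell, with a median of 1.13, among them TUFM, the elongation factor that brings aminoacyl-tRNA to the ribosome (3.82), and C17H12orf65, a release factor family member (2.55). Of 10 tested assembly factors 4 rose (40.0%) and 2 fell, with a median of 0.88, a share near that of all loci. METTL17 rose by 4.00 and NOA1 by 2.79, whereas TFB1M, which methylates the small ribosomal RNA, fell by 4.80, from 1176 ± 375 CPM (SD, n = 6) to 63.5 ± 33.4 CPM (SD, n = 10). FTSJ2 fell by 2.24. Of 11 tested genes for transcription of mitochondrial DNA or its control, 4 rose (36.4%) and 2 fell, with a median of 0.29, near the values of all loci. TFAM, which packages mitochondrial DNA and starts its transcription, rose by 5.26 from 0.518 ± 0.597 CPM (SD, n = 6) to 54.6 ± 17.4 CPM (SD, n = 10), and YY1 by 4.32. PPARGC1A, a coactivator of mitochondrial genes, fell by 5.04 and SUPV3L1, a helicase of mitochondrial RNA decay, by 1.64.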

How the data were processed

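RNA-Seq values of 16 single bovine oocytes and embryos at 8 stages were analysed. The deposited signal per locus is a read count that the authors had scaled by a factor of its sample, for 27393 loci. The submitters' processing notes name cutadapt, FastQC, TopHat, Cufflinks and HTSeq with no role or version; the build, the strand setting and the handling of multi-mapping reads are not given in the sources used here. Within a column, 100% of values above 0 equalled the smallest one times a whole number (tolerance 0.01), which returned the reads and from them CPM. No column was left unmapped (0).

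Members are loci whose name starts with MRPL or MRPS and a digit. They and the gene lists were chosen with earlier results of these data known. The test was limma 3.58.1 in R 4.3.3 (empirical Bayes with trend), applied to log2(deposited value + 1), over all loci passing edgeR's filterByExpr on the recovered reads (9670 in the 8-stage model, 6910 for EGA), with Benjamini-Hochberg adjustment at 0.05. Sums were not tested. The bounds for members at 0 use 3 reads per library. Members named are, per comparison, the 5 largest rises and 5 largest falls called, the 5 highest mean CPM, those at 0, the MRPS18 paralogs, MRPS30, MRPS36, names with several loci and the 3 smallest ranges; other lists give 2 rises and 2 falls. Alternatives were edgeR 4.0.16, DESeq2 1.42.0, other scalings, pseudocounts of 0.5 and 5, no filter, a replicate block and samples left out; leaving out 2C replicate 1 and 8C replicate 2 together, and the scales for the highest stage, were added after seeing the data. Tests were tried on simulated data. Replicates were compared by chi-square and none were duplicates. Gene names and overlaps come from RefSeq's table of ARS-UCD2.0, which holds all 74 member names; it holds gene spans only, so levels were not divided by length and no coordinates are printed.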

Additional observations from a re-analysis of the deposited data

Results flagged for a closer look

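The summed levels and the members named above were checked for a sample far from the others of its group, the members only where a group had at least 30 reads. Other members were not checked. This gave 52 groups, and chance alone flags about 1 in 20. In 5 of them a single sample stood apart. Before EGA, 2C replicate 1 held 244 CPM of MRPL49, with the next sample at 92.0 CPM, and 101 CPM of MRPS10, with the next at 53.0 CPM. 2C replicate 2 held 42.0 CPM of MRPS9 (XLOC_007592), with the next at 15.3 CPM. After EGA, EM replicate 2 held 119 CPM of MRPS30, with the next at 52.3 CPM, and 136 CPM of MRPL15, with the next at 67.0 CPM. 2C replicate 1 is one of the libraries that stood apart over all loci, and EM replicate 2 has the highest summed level of the members.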

How the results depend on the processing

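The counts after against before EGA were the most stable: 37 to 44 rose over the samples left out, and 2 fell, except 1 scaled to total reads. The other counts rest on 2 samples per stage. From MII to 4C the count that rose was 3 by edgeR, 8 with a pseudocount of 0.5, 2 with a pseudocount of 5, 8 scaled to total reads, 10 without 2C replicate 1 and 8C replicate 2, and 0 to 7 over single samples left out; the count that fell was 0 by edgeR, with a pseudocount of 5 and scaled to total reads, and 0 to 1 over samples left out. From 4C to 8C, 14 to 28 rose and 0 to 2 fell over samples left out, and 1 fell by edgeR and without 2C replicate 1 and 8C replicate 2. From 8C to BL, 0 rose by DESeq2, edgeR, TMM scaling and no filter, and 0 to 1 rose and 0 to 1 fell over samples left out, the 1 fall without BL replicate 1. A stage with 1 sample left was assumed to vary like the others. All loci from 8C to BL split into 623 higher and 351 lower by limma but 141 and 198 by edgeR. The log2 ratio of summed levels after to before EGA was 0.77 on the authors' scale, 0.74 with TMM factors, 2.00 as a median over members and 1.60 without MRPS18C; from 4C to 8C it was 1.44 as a median, 1.23 without MRPS18C, and 0.36 to 0.90 over samples left out, lowest without 8C replicate 2. EM was the highest stage for 12 members on the authors' scale and 20 with TMM factors, against 37 in CPM. The cause was not tested. Of the named changes, 57 of 640 lost the call over samples left out and 22 of 377 under other alternatives, and none changed direction.

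The replicate numbers name different oocytes or embryos. Over 28 pairs of stages, the deviations of same-numbered samples correlated at -0.31 to 0.18, with a median of 0.001 and above 0.1 in 1. Whether equal numbers share more than a name cannot be told from this. With the replicate block, 48 members had a stage effect, 40 rose and 2 fell after EGA, and the other counts were 5 and 1, 27 and 2, and 1 and 0 for the 3 spans in order of time, and the rise of MRPS30 lost its call (adjusted p = 0.053). In the samples before EGA 35 to 56 members had at least 3 reads, against 61 to 71 after it; below that level a member cannot be told from 0. The 2 samples per stage limit the spans.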
